A study of Mus musculus with 6 samples.

Results

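The genes described here build and run the connecting cilium of photoreceptors. They comprise 34 genes of intraflagellar transport (IFT), its kinesins, the BBSome and the transition zone, chosen by symbol from a fixed list of 35 among the 24346 gene symbols measured. Rp2 is not in the tables under that symbol. Its older symbol Rp2h is, outside the rule, and stood at 8.54 ± 0.420 FPKM in controls and at 9.08 ± 0.963 FPKM in the triple-deficient group (SD, n = 3). FPKM counts fragments per kilobase of transcript and per library size, so it is a level per transcript length.

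RNA-seq was done on whole retinas of mice at postnatal day 12. All mice of both groups lacked Nrl (Nrl-/-), a transcription factor without which rod precursors turn into cone-like cells, so that such cells are enriched. The 3 controls were Panky+/-;Panky-like+/-;Nrl-/- and the 3 triple-deficient samples Panky-/-;Panky-like-/-;Nrl-/-, taken from 3 pairs of littermates, without a label that says which libraries form a pair. Controls therefore carried a mutant copy of each gene, and no group with intact Panky, Panky-like and Nrl was analysed here. How the alleles were made is not given in the sources used here. Panky is Ankrd33, a photoreceptor co-repressor known to act with the transcription factor CRX, and Panky-like is read here as Ankrd33b, its paralog, which the labels do not state.

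The outer segment of a photoreceptor is a modified cilium. Every protein of the outer segment has to pass through its narrow stalk, the connecting cilium, which corresponds to the transition zone of other cilia. IFT trains of the IFT-B and IFT-A complexes are carried outward by kinesins and back by a dynein, the BBSome is a coat of membrane protein cargo that rides on these trains, and transition zone proteins form the gate. Human mutations in many of these genes cause retinal degeneration, alone or with kidney disease and other ciliopathy features.

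As a check of the labels, Ankrd33b was at 35.4, 32.6 and 33.4 FPKM in control libraries 1, 2 and 3 and at 1.80, 1.31 and 1.39 FPKM in triple-deficient libraries 1, 2 and 3. Ankrd33 was at 104 to 110 FPKM in controls, against 50.5 to 59.6 FPKM after loss, and its mean fell by 47.8%. Nrl, null in both groups, still gave 49.2, 38.3 and 45.0 FPKM in controls, against 52.6, 51.3 and 53.7 FPKM in the triple-deficient libraries (limma adjusted p = 0.861). Which part of Nrl is deleted is not given in the sources used here, so its level does not check the labels. Of 14 cone-like photoreceptor markers all were detected, with a summed level of 8290 to 8480 FPKM in controls, against 7840 to 8600 FPKM in the triple-deficient libraries. Of 8 tested rod markers, Nrl among them, 0 passed and 4 had a change above 0. An unadjusted p below 0.05 was found for 3, beside 5.09% of all genes tested, and groups that do not overlap for 3, beside 10.5%. Pde6a was at 12.8 ± 1.22 and 19.5 ± 2.72 FPKM (limma adjusted p = 0.448) and Nr2e3 at 3.69 ± 0.0853 and 4.42 ± 0.179 FPKM (limma adjusted p = 0.836). The libraries held about 18.2 to 27.3 M fragments, estimated from the steps of low values. Triple-deficient 3 stood apart in base composition, its deviations over all genes tested correlating with GC content at Spearman -0.59 against 0.07 to 0.30 in the other libraries. Control 1 held lens transcripts, with summed lens markers at 17.1 FPKM against at most 1.36 FPKM in triple-deficient libraries. Markers of retinal pigment epithelium summed to 43.7 to 56.2 FPKM in controls, against 32.6 to 45.6 FPKM in the triple-deficient libraries, and 0 of the 6 tested passed (limma, adjusted over all genes). Their median change was -0.42, 3 of the 6 had an unadjusted p below 0.05, beside 5.09% of all genes tested, and 4 of 6 had groups that do not overlap, beside 10.5%. Ttr was at 15.8 ± 3.26 and 8.81 ± 1.66 FPKM (limma adjusted p = 0.508) and Tyrp1 at 3.46 ± 0.333 and 1.95 ± 0.399 FPKM (adjusted p = 0.472). The list did not fall as a whole. Dct, the most abundant of the tested markers, had the higher mean in the triple-deficient group, 25.4 FPKM against 21.3 FPKM in controls. Rpe65 had means of 2.59 FPKM in controls and 2.32 FPKM in the triple-deficient group. The groups of Dct and of Rpe65 overlapped. The part of pigment epithelium in the ciliary values was not tested. In whole retina, fewer cells of a type and less RNA per cell cannot be told apart.

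What the ciliary genes share beyond function was looked for in their promoters. Ciliary genes are known targets of RFX transcription factors, which bind the X-box, a near-palindrome of half-sites of the form GTTGCC. CRX, the partner of Panky, is known to bind the core TAATCC. RefSeq promoter windows (GRCm38.p6, 250 bases before to 50 after a transcript start that the table gives) were matched for 31 of the 34 members. For 10 of the 31 a window was set on the 5′ end of the RefSeq gene itself, and for 5 the nearest window lay more than 1000 bases inside the gene. On either strand GTTGCC was present for 14 of these 31 (45.2%), against 14.9% of 10794 tested genes with a window and 14.1% of all 27025 genes of the table. The X-box was found for 5 of 31 (16.1%; Ahi1, Arl13b, Bbs1, Ift57 and Kif17), against 2.96% of tested genes and 2.52% of all. All 5 also hold the half-site, which overlaps the X-box. The CRX core was found for 2 of 31 (6.45%; Bbs1 and Rpgrip1), against 7.24% of tested genes and 8.14% of all. The half-site was added, and 5 other spellings of the X-box were tried, after the data were seen, and those spellings matched 0 to 6 members. A match describes letters in the window and is not evidence of binding.

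The stretches below show matches that lie before the start used by the table, with capitals marking the X-box in the first 3 and the CRX core in the last, and each is given 5′ to 3′ on the gene's strand. Ift57 (chr16:49699197-49699256, plus strand) holds a pair of X-boxes that begin 87 and 60 bases before the RefSeq gene start, and the last 24 bases shown lie in an exon of a GENCODE M21 transcript. The X-box of Kif17 (chr4:138262154-138262213, plus strand) begins 73 bases before the gene start. That of Arl13b (chr16:62847186-62847245, minus strand) begins 181 bases before the start of the table and 166 bases before the RefSeq gene's 5′ end. The core of Bbs1 (chr19:4906792-4906851, minus strand) begins 197 bases before the start of the table and 171 bases before the gene's 5′ end. The core of Rpgrip1, present as its reverse complement, begins 28 bases before the start of the table, which lies 6662 bases inside the RefSeq gene.
Ift57: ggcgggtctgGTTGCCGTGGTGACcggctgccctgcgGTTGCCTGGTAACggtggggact
Kif17: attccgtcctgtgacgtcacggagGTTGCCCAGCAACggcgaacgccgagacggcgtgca
Arl13b: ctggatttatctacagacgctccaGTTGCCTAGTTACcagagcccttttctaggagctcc
Bbs1: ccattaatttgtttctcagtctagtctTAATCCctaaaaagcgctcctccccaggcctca

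All 34 ciliary genes were expressed. Their levels spanned 140-fold, from 1.07 FPKM for Kif17 to 150 FPKM for Rpgrip1, and 26 of them lay between 10 and 40 FPKM. The median member stood at 24 FPKM, against 11.7 FPKM for all 14325 genes tested, and 30 of 34 lay above that value. The order of levels was led by Rpgrip1, Arl6, Ahi1, Bbs4, Ift20 and Ttc8. In 6 of the 33 neighbouring pairs of that order every library of the higher gene was above every library of the lower one. These steps follow Rpgrip1, Arl6, Bbs4, Ttc8, Spata7 and Arl13b, and the other 27 neighbours overlapped in their spread over the 6 libraries.

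**Figure D1:**
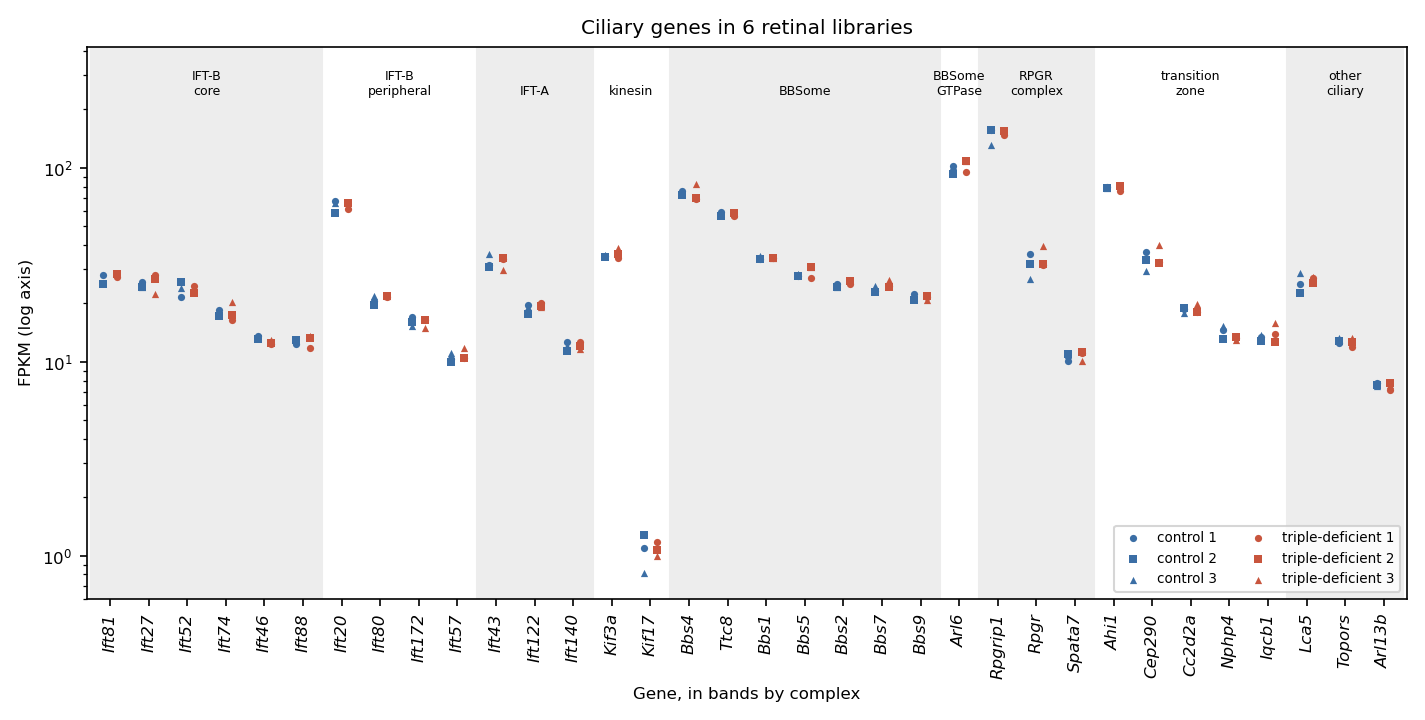
FPKM on a log axis for each of the 34 ciliary genes in the 3 control (blue) and 3 triple-deficient (red) libraries, in bands by complex and ordered by level within a band; symbols mark libraries 1, 2 and 3. Control and triple-deficient points lie side by side for every gene, with Kif17 near 1 FPKM and Rpgrip1 near 150 FPKM at the ends of the range.

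No ciliary gene passed the test between genotypes. In limma with Benjamini-Hochberg adjustment over all genes, 0 of 34 passed the threshold of 0.05, against 0.0279% of the 14325 genes tested, and the smallest adjusted p was 0.946. At an unadjusted p below 0.05 there were also 0 of 34, where 5.09% of all genes tested had such a p. The groups did not overlap for 1 of 34 members, with the triple-deficient libraries below, against 10.5% of all genes tested in either direction and 5.64% in that one. Changes are the triple-deficient mean minus the control mean of log2(FPKM + 1), a scale that understates the change of low genes. Their median over the members was 0.02, against 0.00 over all genes tested, and 21 of 34 (61.8%) were above 0, against 51.8% of all. The median GC content was 46.0% for the members and 49.8% for all genes tested. With trends on GC content and transcript length removed from each library, the median change was 0.01 for the members and 0.00 for all. A change beyond 0.1 in size was seen for 1 member, Rpgr, and for 23.6% of all genes tested.

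The data also bound how large a change could have gone unseen. The 95% confidence intervals of the members ran from -0.24 to 0.39. All 34 stayed within 1.5-fold of FPKM + 1, up or down, and 31 within 1.2-fold, the exceptions being Kif17, Rpgr and Cep290. Of all genes tested, 65.2% had an interval within 1.2-fold, a share that is not matched for level. Variation over the 6 libraries was small, with a median coefficient of variation of 4.98% among the members. Over 6367 genes in the same range of levels that median was 5.31%, and over all genes tested 6.87%.

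**Figure D2:**
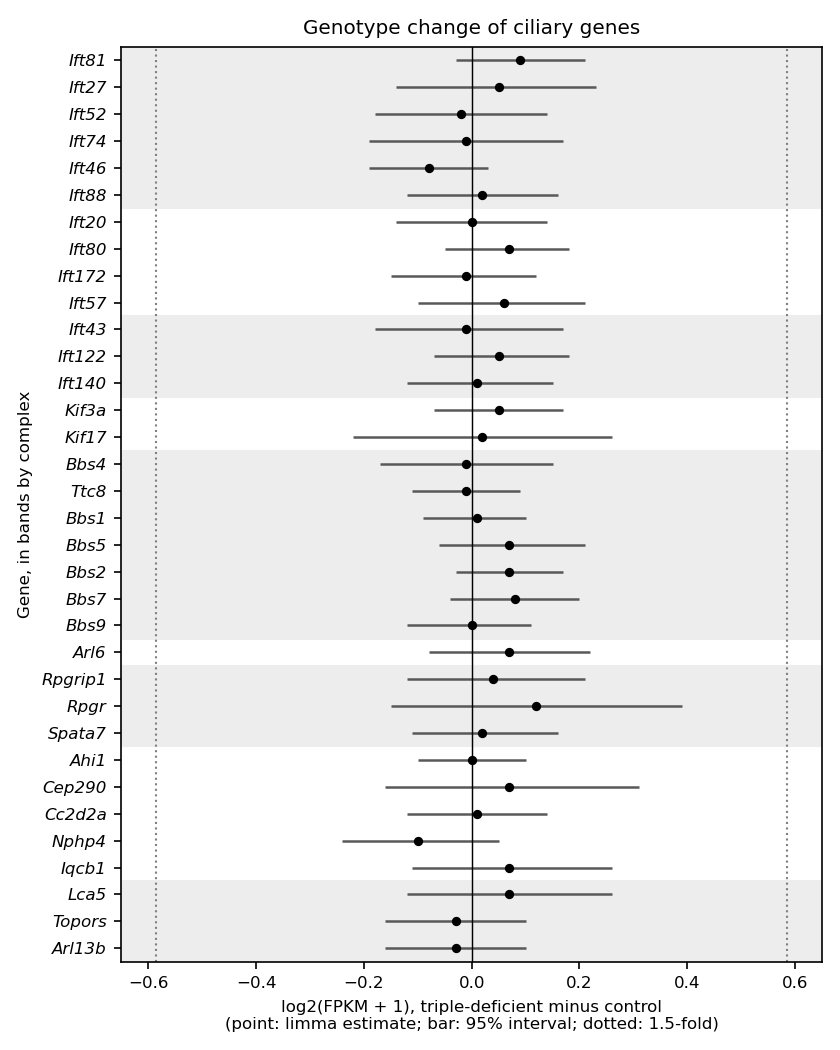
Difference in log2(FPKM + 1) between triple-deficient and control libraries for each ciliary gene, as the limma estimate (point) with its 95% confidence interval (bar), in bands by complex in the order IFT-B core, IFT-B peripheral, IFT-A, kinesin, BBSome, its GTPase, RPGR complex, transition zone and other; dotted lines mark 1.5-fold. Every interval includes 0, and the widest, that of Rpgr, runs from -0.15 to 0.39.

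IFT-B carries cargo outward and is built of a core and a peripheral part. The summed level of its 6 core members was 118 to 120 FPKM in controls, against 120 to 121 FPKM in the triple-deficient libraries. Ift46, a core subunit, was the member whose groups did not overlap. It was at 13.5, 13.1 and 13.5 FPKM in controls 1, 2 and 3, against 12.4, 12.5 and 12.9 FPKM in triple-deficient 1, 2 and 3. All triple-deficient values lay below all controls, but the gap between the nearest libraries was small and the change of -0.08 (SE 0.049) did not pass (limma adjusted p = 0.946). Ift81, which binds tubulin cargo together with Ift74, had the smallest p of all members, 0.128 before adjustment. Its level was 28.1, 25.2 and 25.5 FPKM in controls, against 27.4, 28.3 and 28.4 FPKM in the triple-deficient libraries, a change of 0.09 (SE 0.054, limma adjusted p = 0.946). Control 1 lay among the triple-deficient values, so the groups overlapped.

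Ift74 itself was at 18.1 ± 0.763 and 18.0 ± 2.03 FPKM in controls and triple-deficient retinas (SD, n = 3). Ift88, the subunit whose hypomorphic mutation in mice disrupts outer segments, was at 12.7 ± 0.340 and 12.8 ± 0.871 FPKM. Ift52, another core subunit, was at 23.8 ± 2.05 and 23.4 ± 1.09 FPKM. These 3 pairs of means differed by less than the SD of either group. Ift27, a small GTPase of the core that links trains to BBSome export, was at 24.2 to 25.8 FPKM in controls, against 28.1, 26.7 and 22.3 FPKM in triple-deficient 1, 2 and 3. The triple-deficient values of Ift27 spread on either side of the controls. Ift27 lies on chromosome 15 (78159460 to 78174081, GRCm38), the chromosome of both targeted genes, 22.9 Mb from Ankrd33 and 46.8 Mb from Ankrd33b.

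Among the 4 peripheral IFT-B members, Ift20, which also sits at the Golgi and helps send cargo to the cilium, had the highest level. It was at 67.1, 58.7 and 65.6 FPKM in controls, against 61.0, 66.2 and 63.6 FPKM in the triple-deficient libraries, a change of 0.00 (interval -0.14 to 0.14). Ift172, which acts where trains turn around at the ciliary tip, was at 16.1 ± 0.850 and 16.0 ± 0.825 FPKM. For both genes the ranges of the groups overlapped over most of their length. Ift80 was at 20.7 ± 1.08 and 21.7 ± 0.193 FPKM and Ift57 at 10.5 ± 0.541 and 10.9 ± 0.752 FPKM, and neither passed.

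IFT-A returns trains to the cell body and admits membrane proteins to the cilium. Its 3 members had changes of 0.05 for Ift122, 0.01 for Ift140 and -0.01 for Ift43. Ift140 was at 12.6, 11.3 and 12.0 FPKM in controls, against 12.6, 12.1 and 11.6 FPKM in the triple-deficient libraries. Its interval, -0.12 to 0.15, was close to the median precision of the members, whose median SE was 0.060. The groups of all 3 overlapped.

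Levels within a group differed most for the kinesins. Kif3a, a motor subunit of the heterotrimeric kinesin that drives IFT outward, was at 35.0, 34.6 and 35.4 FPKM in controls, against 34.3, 35.9 and 38.8 FPKM in the triple-deficient libraries. Kif17, a homodimeric motor also found in cilia, was at 1.09, 1.28 and 0.813 FPKM in controls, against 1.18, 1.07 and 0.999 FPKM in the triple-deficient libraries. The mean of Kif3a was 33.2 times that of Kif17, per length. About 60 to 110 fragments per library stand behind the Kif17 values, by its longest transcript, and its exons overlap those of Sh2d5 on the same strand. Its coefficient of variation of 15.0% was the highest of all members, so a change of Kif17 could be bounded less well in FPKM than one of Kif3a.

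The 7 BBSome subunits, which form a coat for ciliary membrane proteins, summed to 259 to 267 FPKM in controls, against 258 to 279 FPKM in the triple-deficient libraries. Bbs1, the subunit that is most often mutated in Bardet-Biedl syndrome, was at 34.0, 33.9 and 34.9 FPKM in controls and at 34.4 FPKM in each triple-deficient library. Its coefficient of variation of 1.03% was the lowest of the members, and its change was 0.01 (interval -0.09 to 0.10). Its promoter window is among those printed above.

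Bbs4, a subunit of tetratricopeptide repeats that binds late in assembly, was at 75.7, 72.7 and 73.9 FPKM in controls, against 68.9, 70.3 and 82.2 FPKM in triple-deficient 1, 2 and 3. Triple-deficient 3 was above and the other 2 triple-deficient libraries were below every control. Ttc8, a further subunit with such repeats, was at 58.0 ± 1.26 and 57.5 ± 1.25 FPKM. Bbs5, which binds phosphoinositides, was at 27.8, 27.8 and 28.3 FPKM in controls, against 27.0, 30.9 and 30.8 FPKM in the triple-deficient libraries. Triple-deficient 2 and 3 were above the controls and triple-deficient 1 below them and the change was 0.07 (SE 0.060, limma adjusted p = 0.956). Without triple-deficient 1 the change of Bbs5 was 0.14 (limma adjusted p = 0.637).

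The core subunits Bbs2, Bbs7 and Bbs9 act together in the first step of BBSome assembly. Bbs2 was at 24.6 ± 0.480 and 25.9 ± 0.679 FPKM, Bbs7 at 23.7 ± 0.876 and 25.1 ± 1.07 FPKM, and Bbs9 at 21.6 ± 0.796 and 21.5 ± 0.520 FPKM. Their levels were thus close to each other, while transcripts of Bbs4 and Ttc8 were more abundant. As a share of the summed FPKM of the 7 subunits, Bbs4 made up 26.3% to 29.5% over the 6 libraries, Ttc8 20.7% to 22.1% and Bbs9 7.52% to 8.41%. Arl6, the small GTPase that recruits the BBSome to membranes, had more transcripts per length than any subunit. It was at 102, 93.4 and 102 FPKM in controls, against 95.3, 109 and 109 FPKM in the triple-deficient libraries, a change of 0.07 (SE 0.066, limma adjusted p = 0.958).

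At the connecting cilium, Rpgrip1 anchors Rpgr, a guanine nucleotide exchange factor-like protein whose gene is X-linked, and Spata7 belongs to the same complex. Rpgrip1 was at 156, 156 and 131 FPKM in controls 1, 2 and 3, against 148, 155 and 154 FPKM in triple-deficient 1, 2 and 3. Control 3 was the lowest library and the other 5 lay within 148 to 156 FPKM. Rpgr was at 36.0, 32.0 and 26.6 FPKM in controls, against 31.5, 32.0 and 39.4 FPKM in the triple-deficient libraries. Its lowest value was again that of control 3, and its highest that of triple-deficient 3. The change of Rpgr, 0.12 (SE 0.117, limma adjusted p = 0.958), was the largest of all members and 1.09-fold on the scale of FPKM + 1. Spata7 was at 10.6 ± 0.399 and 10.8 ± 0.584 FPKM. Exons of Rpgr overlap those of Srpx on the same strand, and those of Rpgrip1 overlap Supt16 on the other strand. Exons of Arl6, Bbs4, Cep290, Ift57, Ift88 and Topors also overlap those of another gene on the other strand. Whether counting used strand is not given in the sources used here.

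The transition zone gate was represented by 5 genes, with summed levels of 155 to 163 FPKM in controls, against 154 to 170 FPKM in the triple-deficient libraries. Cep290, which bridges microtubules and membrane and whose mutations cause early childhood blindness, followed the pattern of Rpgr. It was at 36.9, 33.3 and 29.4 FPKM in controls, against 32.6, 32.4 and 40.1 FPKM in the triple-deficient libraries. Control 3 was the lowest library and triple-deficient 3 the highest. The change of Cep290, 0.07 (SE 0.102), became -0.01 without control 3 and -0.03 without triple-deficient 3, but 0.15 without control 1, 0.12 without triple-deficient 1 and 0.13 without triple-deficient 2. That of Rpgr became 0.01 without control 3 and 0.02 without triple-deficient 3, but 0.22 without control 1, and it did not pass in any of these fits. With the trends on GC content and transcript length removed from each library, the change was 0.01 for Cep290 and 0.09 for Rpgr.

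Iqcb1, a nephrocystin that binds Cep290, was at 13.3 ± 0.441 and 14.1 ± 1.69 FPKM. Nphp4, of the nephrocystin module, was at 14.5, 13.1 and 15.2 FPKM in controls, against 13.3, 13.4 and 13.0 FPKM in the triple-deficient libraries. Its change of -0.10 (SE 0.063, limma adjusted p = 0.946) was the lowest of the members, and control 2 lay within the triple-deficient range. The change of Nphp4 was -0.15 without control 2, -0.05 without control 3 and -0.03 with the GC and length trends removed, where that of Ift46 was lower at -0.08. Ahi1, a Joubert syndrome protein with an established role in outer segment formation, was at 79.3 ± 0.643 and 79.2 ± 2.93 FPKM, and Cc2d2a, of the tectonic complex, at 18.5 ± 0.644 and 18.6 ± 1.06 FPKM. Neither differed by more than the spread between libraries.

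The last 3 genes act in or near the cilium in other ways. Lca5, or lebercilin, which binds IFT proteins in photoreceptors, was at 25.1, 22.5 and 28.6 FPKM in controls, against 27.0, 25.5 and 27.5 FPKM in the triple-deficient libraries, so that the triple-deficient values lay inside the control range. Arl13b, a GTPase of the ciliary membrane, was at 7.66 ± 0.135 and 7.51 ± 0.288 FPKM. Topors, a ubiquitin and SUMO ligase found at the ciliary base, was at 12.8 ± 0.340 and 12.6 ± 0.657 FPKM. Their changes were 0.07, -0.03 and -0.03, and none passed.

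Single libraries stood out among the members. Triple-deficient 3 was the highest of the 6 libraries for 14 of 34 members, and for 26.7% of all genes tested. Control 2 was the lowest for 12 of 34 and triple-deficient 1 for 10, against 14.3% and 12.3% of all genes tested. The deviation of a member in triple-deficient 3 from its mean over the libraries went with base composition, at Spearman -0.66 over the 34 members, and in triple-deficient 1 at 0.49. These are correlations over genes of 1 library, given as a description. Cep290, with a GC content of 38.7%, deviated by 0.23 in triple-deficient 3 on the log2(FPKM + 1) scale, and Ift27, at 55.8%, by -0.17. Of 10 members above 50% GC, 3 lay above their mean in that library. The part of base composition in each gene's change was not tested beyond the removal of its trend, after which the median change of the members was 0.01 and 0 of 34 passed.

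**Figure D3:**
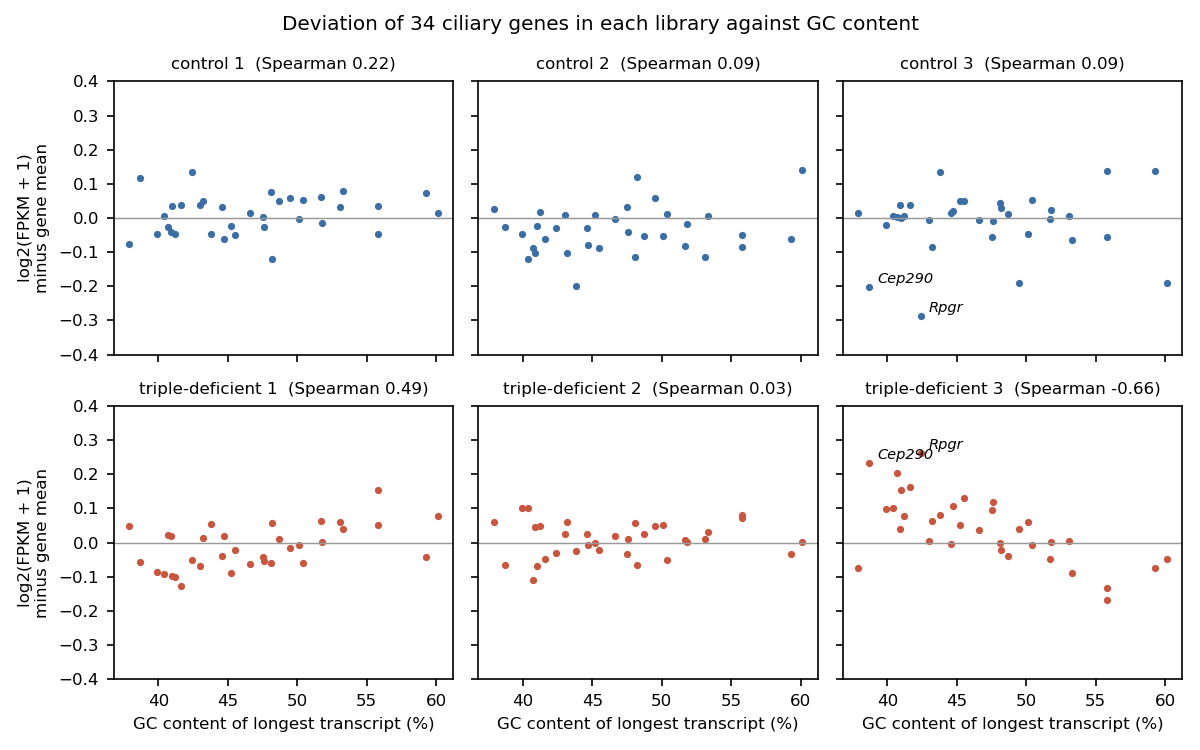
Deviation of each of the 34 ciliary genes from its mean over the 6 libraries, on the log2(FPKM + 1) scale, against the GC content of its longest transcript, in 1 panel per library (controls above in blue, triple-deficient below in red). In triple-deficient 3 the points fall from left to right (Spearman -0.66), and Rpgr and Cep290 are low in control 3 and high in triple-deficient 3.

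Other genes of the ciliary pathway were taken from 8 lists that hold 95 tested genes, and 0 passed in either direction (limma, adjusted over all genes). At an unadjusted p below 0.05 there were 6 of 95, beside 5.09% of all genes tested, and 9 of 95 had groups that do not overlap, beside 10.5%. The median change was 0.03, and 61 of 95 (64.2%) were above 0. Tmem237, a membrane protein of the transition zone, had the smallest p of these genes. It was at 45.9, 46.1 and 45.8 FPKM in controls, against 50.2, 49.7 and 54.2 FPKM in the triple-deficient libraries, all above all controls, a change of 0.16 (SE 0.047, limma adjusted p = 0.836). Tmem17, of the same gate, was at 11.0 ± 0.642 and 9.68 ± 0.584 FPKM (change -0.17, limma adjusted p = 0.927).

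None of the other transport genes passed. Of 11 further IFT genes tested, Ttc30a1, which fits onto the IFT-B core and is a close copy of Ttc30a2, so that their reads may be split, averaged 3.91 ± 0.142 and 4.50 ± 0.249 FPKM, with limma adjusted p = 0.943. Its relative Ttc30b was at 7.10 ± 0.192 and 7.91 ± 0.480 FPKM. Among 13 motor genes, Dync2h1, the heavy chain of the dynein that returns IFT trains, was at 9.83 ± 0.811 and 10.7 ± 0.450 FPKM, and Dynlrb1, a dynein light chain, at 160 ± 8.82 and 150 ± 6.54 FPKM. Among 10 genes that act with the BBSome, Lztfl1, a regulator of BBSome traffic, was at 23.1 ± 0.843 and 25.4 ± 1.81 FPKM with groups that do not overlap (change 0.13, limma adjusted p = 0.943), and Rab3ip was at 23.2 ± 1.07 and 24.4 ± 0.169 FPKM.

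A list of carriers of lipid-modified outer segment proteins and of genes grouped with them had a median change of -0.06 over 8 genes. Of these 8 genes, 2 were above 0. Triple-deficient 3, the library set apart in base composition, was the lowest of all libraries for Arl3, Arl2, Unc119, Unc119b, Pde6d and Cys1. It was not the lowest for Arl2bp and Tbccd1. The part of base composition in the changes of that list was not tested. Unc119, which carries acylated transducin, was at 561, 553 and 583 FPKM in controls, against 541, 534 and 472 FPKM in the triple-deficient libraries. All triple-deficient values of Unc119 lay below the controls, for a change of -0.14 (SE 0.065, limma adjusted p = 0.943). Arl3, the GTPase that releases such cargo, was at 154 ± 10.3 and 145 ± 8.84 FPKM. A separate list, of photoreceptor axoneme genes and ciliary kinases, had a median change of 0.03 over 8 tested genes, of which 6 were above 0. In that list Tulp1, a photoreceptor protein needed for opsin transport, was at 558 ± 25.2 and 522 ± 38.5 FPKM. Nek1, a kinase linked to cilia, was at 12.3 ± 0.679 and 13.3 ± 0.923 FPKM.

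Among 10 genes that modify axonemal tubulin, Tpgs1, a subunit of a polyglutamylase, had the largest change of the 95. It was at 26.1 ± 2.03 FPKM in controls, 24.5 FPKM being the lowest, and at 18.9 ± 6.47 FPKM in the triple-deficient libraries, with 24.8 FPKM in triple-deficient 1 and 12.0 FPKM in triple-deficient 3, a change of -0.50 (SE 0.213, limma adjusted p = 0.943). The lowest value was that of triple-deficient 3, and triple-deficient 1 lay within the control range. Ttll4, a glutamylase, averaged 8.15 ± 0.150 and 9.14 ± 0.576 FPKM, with limma adjusted p = 0.943. Of the transcription factors of ciliary genes, Rfx3 was at 9.59 ± 0.642 and 10.1 ± 0.888 FPKM, Glis2 at 12.9 ± 0.224 and 14.0 ± 1.03 FPKM, and Foxj1, the regulator of motile cilia, at 3.58 ± 0.0717 and 3.21 ± 0.248 FPKM, and none passed. Summed markers of cells with motile cilia were at 22.4 to 23.8 FPKM in controls, against 22.2 to 25.5 FPKM in the triple-deficient libraries. Most of that sum was Ccdc39, at 16.7 ± 1.21 and 17.3 ± 1.99 FPKM. Of 5 tested markers 0 passed, and 3 had groups that do not overlap, beside 10.5% of all genes tested. Foxj1 was lower in the triple-deficient libraries, and Tekt1 (0.690 and 0.886 FPKM) and Dnah11 (0.713 and 0.848 FPKM) were higher.

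**Figure D4:**
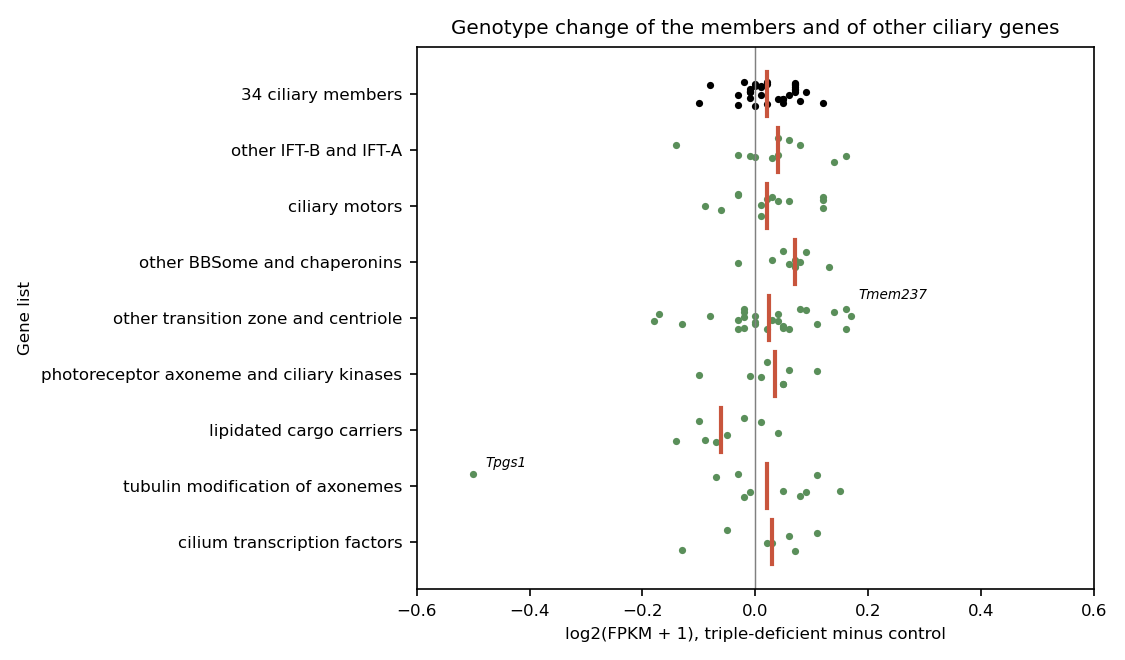
Difference in log2(FPKM + 1) between triple-deficient and control libraries, 1 point per tested gene, for the 34 ciliary members (black) and 8 lists of other ciliary genes (green); vertical positions within a row are spread for visibility and red bars mark the median of each list. All points but Tpgs1, at -0.50, lie between -0.18 and 0.17.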

How the data were processed

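RNA was extracted with TRIzol and sequenced from stranded TruSeq mRNA libraries, per the labels' protocols. The authors deposited 1 table of FPKM values per library. The submitters' processing notes name, without roles, Cufflinks 2.2.1, Cuffdiff, TopHat2 2.1.1, Bowtie2 2.3.5.1 and the build mm10. Annotation, strand setting and scaling are not given in these sources. FPKM was used as deposited. The 14325 genes averaging 0.5 FPKM or more, all 34 members among them, were tested on log2(FPKM + 1) by limma 3.58.1 (R 4.3.3; variance trend; two-sided), with Benjamini-Hochberg adjustment over all of them and a threshold of 0.05. The test was checked on simulated data. The members and all lists were chosen with earlier results of these data known. The text names all members, the targeted genes and up to 2 genes of each other list with the smallest p. Outside that rule, Rp2h, Rfx3, Dct, Rpe65, Ccdc39, Dnah11 and the genes of the carrier list beyond Unc119 and Arl3 were added with their values already seen. So were the 1.2-fold and 1.5-fold bounds on intervals. The littermate pairs of the design imply separate animals within a group, but no label ties a library to an animal. The p-values cover the spread between these samples, and its technical part is not known. Depth was estimated from the spacing of low FPKM values and 197 genes with 1 transcript (interquartile range 22.1 to 23.1 M fragments for control 1). GC content and length are those of the longest GENCODE M21 transcript, known for 99.2% of genes tested. Coordinates and promoters are from RefSeq's GRCm38.p6 tables, the mm10 build. Alternatives covered pseudocount, filter, variance model, scaling, library weights, replicate number, base composition and each library left out.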

Additional observations from a re-analysis of the deposited data

How the results depend on the processing

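Under all 18 alternatives 0 of the 34 members tested passed limma's threshold (33 with a filter of 2 FPKM, which leaves out Kif17), and the smallest adjusted p of any member was 0.637. Member changes stayed between -0.15 and 0.22. The estimates were so near 0 that 17 members changed sign at 2 decimals under some alternative, never beyond -0.07 or 0.07 after the change of sign, and the cause was not tested. A further 3 whose change was 0.00 (Ift20, Bbs9 and Ahi1) took both signs, which makes 20 of 34. With array quality weights the values were 0.07 for Ift43, -0.01 for Kif17, -0.03 for Cep290 and -0.03 for Cc2d2a. With GC and length trends removed they were 0.04 for Ift43, -0.02 for Ift88, -0.01 for Cc2d2a and -0.02 for Spata7, and the same 4 values came with the replicate block and these trends removed. With each library left out in turn, ranges were -0.02 to 0.14 for Ift27, -0.05 to 0.06 for Ift43, -0.08 to 0.03 for Ift52, -0.09 to 0.06 for Ift74, -0.02 to 0.07 for Ift88, -0.02 to 0.05 for Ift140, -0.05 to 0.03 for Ift172, -0.07 to 0.10 for Kif17, -0.09 to 0.04 for Bbs4, -0.03 to 0.01 for Ttc8, -0.04 to 0.09 for Rpgrip1, -0.03 to 0.15 for Cep290, -0.01 to 0.15 for Iqcb1, -0.01 to 0.16 for Lca5, -0.03 to 0.04 for Cc2d2a and -0.06 to 0.01 for Topors. At an unadjusted p below 0.05 there was 1 member without control 1 (Ift81), control 2 (Nphp4), control 3 (Lca5), triple-deficient 1 (Bbs5) or triple-deficient 3 (Ift27), and 0 without triple-deficient 2. With the replicate number as a block 0 members passed and the smallest adjusted p was 0.984. Deviations of same-numbered libraries correlated at 0.02, 0.11 and 0.07, against -0.19 to 0.12 for the other combinations. The best match of control 1 was triple-deficient 2 (0.11), that of control 2 triple-deficient 2 (0.11) and that of control 3 triple-deficient 1 (0.12). Values this small cannot tell whether the numbers mark pairs. With no label for pairs, the numbers are not used as pairs. The 3 littermate pairs of the design cannot be assigned to libraries from the labels, and a fit over the true pairs was not made. Depth limits Kif17 most, at about 60 to 110 fragments a library.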
